A study of Drosophila melanogaster with 2 samples.

Results

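Cytosolic ribosomal protein genes were followed in type II neuroblast lineages of Drosophila melanogaster larvae, in wild type and after knockdown of osa, a subunit gene of the SWI/SNF chromatin remodelling complex. Members were all genes whose symbol in the deposited tables begins with RpL or RpS, together with sta, the gene of the small-subunit protein RpSA. The symbol sop was also searched for, and its gene stands in the tables as RpS2. The rule gave 93 of 14210 genes. Of these, 79 were the main or only copy of a protein (32 of the small subunit and 47 of the large subunit). The other 14 were called second copies by their names, which end in a, b or -like, and they belong to 13 families. Within a family the copy of highest mean FPKM over both libraries was taken as the main copy.

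There were 2 libraries, 1 per genotype, so differences have no replicate check and no test between genotypes was run. Both came from brains of late larvae of the last instar, from eggs laid over 24 h and reared for 5 days at 25 °C. The larvae carried UAS-CD8::GFP under the driver worniu-Gal4, with ase-Gal80 limiting it to type II lineages, and their cells were sorted by flow cytometry for strong GFP. The wild type library (strain w1118) held neuroblasts, intermediate progenitors and ganglion mother cells, with neurons left out. The knockdown library came from flies that also carried the RNAi line 7810 of the Vienna collection against osa, and it held neuroblasts, neuroblast-like revertant cells and intermediate progenitors. Genotype, RNAi transgene, cell mix and library therefore cannot be told apart here, nor can fewer cells of a type be told apart from less RNA per cell.

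Each ribosome has 1 small and 1 large subunit, each built from ribosomal RNA and a set of proteins of which most are present as a single molecule. Their genes are transcribed at high and similar rates in growing cells, and in flies a lost copy of many of them causes the dominant Minute phenotype of slow development and short bristles. Most eukaryotic ribosomal proteins of flies come from a single gene, and several duplicated genes have a second copy that is used mainly in the germ line. Neuroblasts regrow between divisions and are known for high rates of ribosome production.

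The libraries differed in depth, with 10114559 reads on genes in wild type against 15707014 in the knockdown as implied by the widths of the deposited intervals. The target osa (FBgn0261885) was at 31.3 FPKM in wild type (deposited interval 30.3 to 32.3) and 15.6 FPKM in the knockdown (15.01 to 16.2). FPKM counts fragments relative to transcript length and to the size of the library. Of 13 type II neuroblast and progenitor genes checked against the label, 11 were at 1 FPKM or above in both libraries, dpn (61.97 and 67.3 FPKM) and wor (85.2 and 89.3) among them, but the list did not move as one. Lower in the knockdown were opa (22.5 FPKM and listed at 0), D (82.3 and 23.8), ham (49.998 and 18.05) and ey (4.95 and 0.828), while pnt (13.8 and 53.3) and grh (33.6 and 92.2) were higher. The part of this difference in the results below was not tested. The neuronal markers summed to 50.02 FPKM in wild type against 33.5 in the knockdown, of which elav gave 41.3 and 30.5 and Snap25 7.08 and 0.732. Of the glial markers Eaat1 and nrv2 were high while repo was listed at 0 and at 0.709 FPKM.

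Ribosomal protein genes took close to a constant share of both libraries. Members made up 47.6% of all summed FPKM in wild type against 45.8% in the knockdown, a difference of −1.74 percentage points. As a share of implied reads, which does not weight short transcripts up, they took 31.5% and 29.4%. Of the 100 genes of highest FPKM, 76 were members in wild type against 75 in the knockdown. The direction of the share was the same in all alternatives tried, and without RpL41 the difference was −1.41 points.

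The main copies stood in a narrow band of high levels, RpS6 apart. The other 78 had a median of 5538 FPKM in wild type, from 1281 to 43461, and a median of 5533 FPKM in osa RNAi, from 1492 to 36146. Among the small-subunit genes without RpS6 the coefficient of variation was 26.7% in wild type against 25.2% in the knockdown. Among the 47 of the large subunit it was 98.6% and 86.4%, with RpL41 far above the rest.

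RpL41, which encodes a peptide of very few residues, had the highest level of any gene in wild type, at 43461 FPKM, and was at 36146 FPKM in osa RNAi. Its annotated transcript is 320 bases long, and it took 4.42% of summed FPKM but 1.22% of implied reads in wild type. RpL39, another very short protein that lines the exit tunnel, was at 13794 and 11197 FPKM. RpL29 was at 9811 and 9412 FPKM, RpS29 at 9182 and 8584, and RpL10, which joins the large subunit late in its assembly, at 8370 and 7951. These were among the highest main copies by mean FPKM. At the low end, RpL4 was at 1281 and 1492 FPKM, RpLP0 at 1849 and 1679, RpL22 at 1995 and 1870, RpL38 at 2363 and 1566, and RpL3, which reaches the peptidyl transferase centre, at 2068 and 2213. Across the 78 genes log2 FPKM in wild type and log2 annotated transcript length had a Pearson r of −0.65, a description over genes of 1 library. FPKM is divided by length, and that division can by itself give a negative r.

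**Figure D1:**
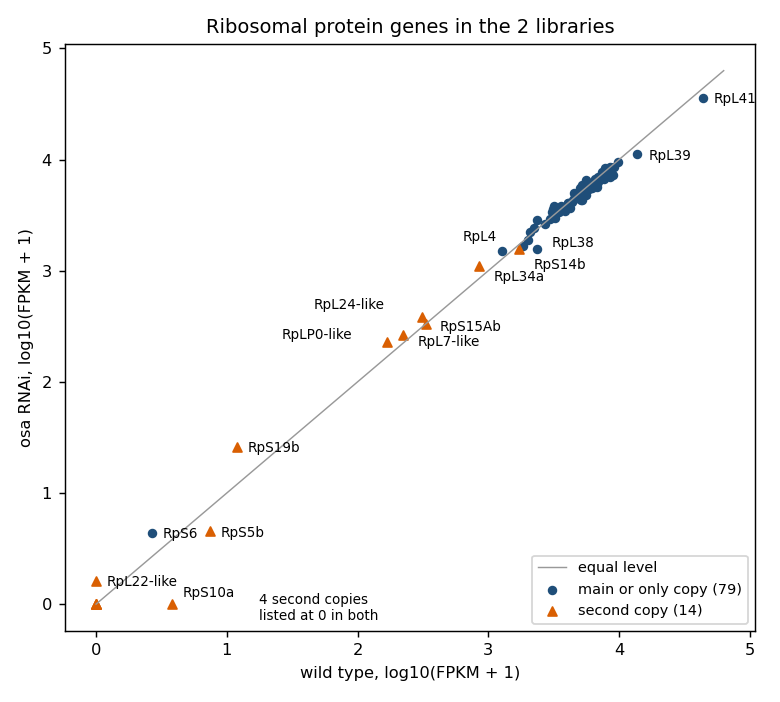
Level of each ribosomal protein gene in wild type (x axis) and osa RNAi (y axis), both as log10(FPKM + 1), with 1 point per gene, blue circles for 79 main or only copies and orange triangles for 14 second copies. The main copies form a tight cloud along the line of equal level, RpS6 sits among the low second copies, and 4 second copies lie on the origin.

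RpS6, the substrate of S6 kinase and a protein of every small subunit, was the exception. The gene (FBgn0261592, X from 7793653 to 7795362 in the coordinates of the files) was listed at 1.68 FPKM in wild type (deposited interval 0.929 to 2.43, 20 implied reads) and 3.36 FPKM in the knockdown (2.46 to 4.26, 56 implied reads). Both estimates carried the status OK, and its locus overlapped no other gene of the tables. Its nearest neighbour in level among main copies, RpL4, was at 1281 FPKM. How the reads of RpS6 were aligned and counted was not tested, so the level of its mRNA in these cells cannot be read from these values. Its ratio between libraries, 1.998-fold higher in osa RNAi (95% counting interval 1.20 to 3.33), rests on these few reads, and RpS6 is left out of the ranges of main copies below.

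The main copies differed little between genotypes. Differences are the log2(FPKM + 1) of the knockdown minus that of wild type. A gene counted as past 2-fold with a difference of 1 or more in either direction, a mean of 1 FPKM or more and deposited intervals that did not overlap. None of the 79 main copies passed this rule in either direction, where 14.6% of all 7144 genes measured the same way did. Genes of like depth seldom passed either: of 61 genes that are not members and had at least 10000 implied reads in each library, 1 did. The median of the main copies was −0.05, and that of all measured genes was 0.04. Without RpS6 the differences ran from −0.59 to 0.28, and the range from the lower to the upper quartile was 0.14 wide, against 0.72 for all genes and 0.40 for those 61. The log2 levels of the 78 genes in the libraries had a Pearson r of 0.98, a description over genes that differ in length and share the same libraries.

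Many small differences were still larger than the counting error, because each main copy other than RpS6 had at least 6669 implied reads in each library. By deposited intervals alone, 44 of the 79 main copies were lower in osa RNAi, 20 (RpS6 among them) were higher and 15 overlapped. Over all members measured, 47 of 88 were lower and 25 were higher, where 30.0% of all genes were lower and 35.9% were higher. The same lean stood in other abundant genes: of the 61 deeply covered genes that are not members, 59.0% were lower and 32.8% were higher, with a median of −0.12. With both libraries rescaled to the same upper quartile of genes above 0, log2 FPKM in the knockdown moves up by 0.11, the main copies have a median of 0.07 against 0.15 for all genes, and 61 members are higher and 15 lower, where 44.3% of all genes are higher and 23.3% lower. The sign of the main copies' median thus depends on the scaling, while that median stayed below the one of all genes in each. The quartile was taken over 7772 genes above 0 in wild type and 8314 in the deeper knockdown library. How this unequal number bears on the scaling was not tested.

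**Figure D2:**
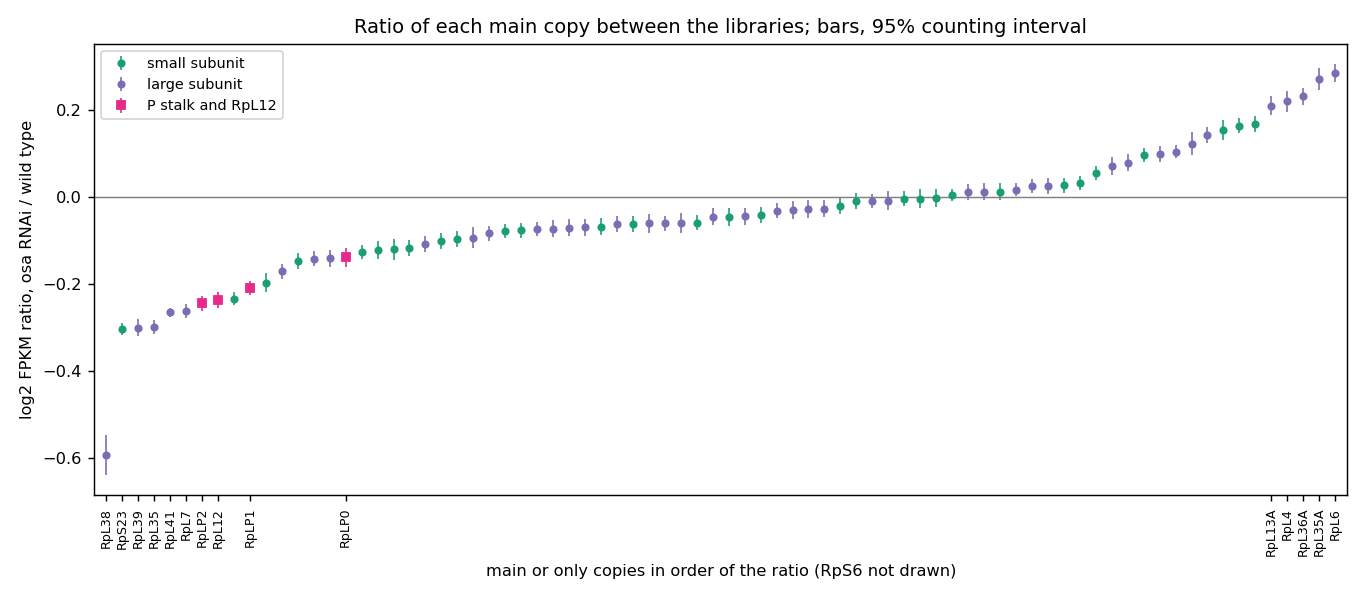
Log2 ratio of FPKM, osa RNAi over wild type (y axis), for 78 main or only copies in order (x axis), with bars for the 95% counting interval; green marks the small subunit, violet the large subunit and pink squares the P stalk proteins with RpL12, and a few genes are labelled. RpL38 stands apart at the low end, the 4 pink squares lie in the lower part of the order, and RpL6 is highest.

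RpL38 had the lowest difference of the main copies. This small protein of the large subunit, known in mouse for its part in the translation of Hox mRNAs, was at 2363 FPKM in wild type against 1566 in the knockdown, 1.51-fold lower (95% counting interval 1.46 to 1.56). Its implied reads, 6669 and 8758 at a depth ratio of 1.55 between the libraries, give a smaller gap, outside that interval. Those of RpL7, 52556 and 63600, give a larger gap, so RpL38 was lowest by FPKM and not by reads. The locus of RpL38 is short (460 bp), and how its length bears on the FPKM was not tested. In FPKM the difference was −0.59, and those of the next genes were smaller. RpS23, a protein of the decoding centre, was at 8539 and 6915 FPKM (difference −0.30), RpL39 followed with −0.30, and RpL35, which sits at the exit of the tunnel, was at 8962 and 7285 FPKM (−0.30). RpL41 differed by −0.27, RpL7 was at 5236 and 4364 FPKM (−0.26), RpLP2 was at 6763 and 5708 FPKM (−0.24), and RpL12 was at 5605 and 4755 FPKM (−0.24). Intervals were apart for all 8 of these genes, and all 8 stayed below 0 under both rescalings.

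The stalk of the large subunit, which recruits elongation factors to the ribosome, was lower as a group. RpLP0 anchors the stalk, RpLP1 and RpLP2 form its dimers, and RpL12 lies at its base. RpLP1 was at 7726 FPKM in wild type against 6681 in the knockdown (difference −0.21), and RpLP0 at 1849 and 1679 (−0.14). All 4 were lower with intervals apart, where 30.0% of all genes and 59.0% of the 61 deeply covered genes that are not members were. The 4 had a median of −0.22, where the other 43 large-subunit genes had −0.03 and the small subunit without RpS6 had −0.05. The 61 deeply covered genes had a median of −0.12 and a lower quartile of −0.33, so differences of this size were common among abundant genes. The 4 genes stayed below 0 under both rescalings, RpLP0 by the least. They were grouped after their values were seen, and the group was not tested.

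RpS6 apart, the genes with the highest differences came from both subunits. RpL6 was at 2371 FPKM in wild type against 2887 in the knockdown, 1.22-fold higher (95% counting interval 1.20 to 1.23), and RpL35A at 3181 and 3839 FPKM, 1.21-fold higher (1.19 to 1.23). RpL36A was at 5606 and 6580 FPKM (difference 0.23), RpL4, whose long loop reaches into the exit tunnel, differed by 0.22, and RpL13A was at 3121 and 3609 FPKM (0.21). From the small subunit, RpS15 was at 4483 and 5034 FPKM (0.17) and RpS14a at 3065 and 3408 (0.15). Intervals were apart for each of these genes, and each kept its direction under both rescalings, which multiply all genes alike. In implied reads, RpL4 (21817 and 34328) and RpL13A (27036 and 43158) rose close to the depth ratio of 1.55. The same held for RpS15 (37037 and 58707) and RpS14a (24058 and 37978), so these FPKM differences were mostly absent from the reads. RpL6 (31413 and 52874), RpL35A (19504 and 33954) and RpL36A (31809 and 56898) rose by more than that ratio.

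Some proteins with a special mode of production or assembly stayed near the middle in FPKM. RpS27A and RpL40 are made as fusions with ubiquitin, and they were at 7360 and 7650 FPKM and at 6397 and 6134 FPKM, on opposite sides of 0 (0.06 and −0.06). RpS30, made as a fusion with a ubiquitin-like protein, was at 5308 and 5060 FPKM. RpL5 and RpL11 enter the ribosome together with 5S RNA, and in mammals they bind the p53 regulator MDM2 when assembly is disturbed. RpL5 was at 4617 and 4694 FPKM and RpL11 at 4751 and 4522. In implied reads RpL5 (49553 and 80724) rose by more than the depth ratio of 1.55, and RpS27A (49719 and 78786) rose close to it. RpL11 (34933 and 48077), RpL40 (46557 and 64479) and RpS30 (34999 and 50695) rose by less.

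The 14 second copies spanned a far wider range than the main copies. Of them, 4 were listed at 0 in both libraries (RpL10Aa, RpL37b, RpS28a and RpS28-like), 1 was listed at 0 in wild type only, 1 in osa RNAi only, and 8 were above 0 in both. A further view is each copy as a percentage of its main copy within a library: 8 of 14 stayed under 1% in both libraries, counting those listed at 0, and the other 6 lay between 4.25% and 55.8%. Those 6 include RpLP0-like, RpL24-like and RpL7-like, which are copies by name but correspond to separate assembly proteins, as described below. A value of 0 in these tables says little at low depth. Among genes with 20 to 40 reads expected in osa RNAi from their wild type level and the depth ratio, 40.6% were listed at 0 there.

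**Figure D3:**
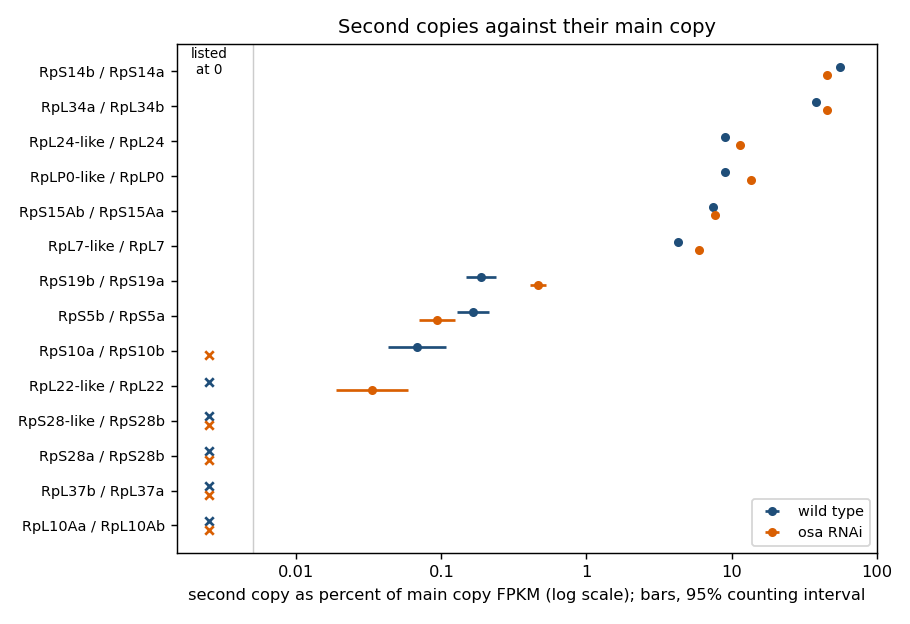
FPKM of each second copy as a percentage of its main copy (x axis, log scale) for 14 pairs (rows), blue for wild type and orange for osa RNAi, with bars for the 95% counting interval and crosses for copies listed at 0. RpS14b and RpL34a lie nearest their main copy, the pairs RpS14b and RpL34a move in opposite directions, and RpS19b shows the widest gap among copies above 0 in both libraries.

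RpS14a and RpS14b encode the same protein and lie in tandem on X, with 220 bases between their loci (7827775 to 7828710 and 7828931 to 7829832 in the files). RpS14a was at 3065 FPKM in wild type against 3408 in the knockdown, and RpS14b at 1711 and 1557. In FPKM the copies thus differed in opposite directions, by 0.15 and −0.14, and their sum was nearly level at 4776 and 4965. In implied reads RpS14a (24058 and 37978) rose close to the depth ratio of 1.55, and RpS14b (12490 and 16028) rose by less. The higher value of RpS14a was thus mostly absent from the reads. RpS14b stood at 55.8% of RpS14a in wild type (95% counting interval 54.6 to 57.0) and at 45.7% in osa RNAi (44.8 to 46.5). The ratio of these ratios was 0.818 (0.795 to 0.842). From implied reads per base of the annotated transcripts, the percentages were 66.4 and 54.0. How reads common to both copies were divided between them was not tested, and the same caution applies to the other near-identical copies.

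The RpL34 copies, which lie far apart on 3R, were both higher in FPKM. RpL34b was at 2221 FPKM in wild type against 2416 in the knockdown, and RpL34a at 850 and 1098, 1.29-fold higher (95% counting interval 1.252 to 1.33). In implied reads RpL34b went from 19098 to 28411, a rise short of the depth ratio of 1.55, so by reads it was not higher. RpL34a went from 38.3% of RpL34b (37.2 to 39.4) to 45.5% (44.5 to 46.5). From implied reads per base of the annotated transcripts, the percentages were 38.0 and 50.1. Summed, the pair stood at 3071 and 3514 FPKM, the largest summed FPKM difference of the 13 families in the upward direction (0.19). In implied reads only RpL34a (5765 and 11302) rose by more than the depth ratio, so this ranking holds for FPKM alone.

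RpS15Ab held its level beside RpS15Aa. It was at 330.3 FPKM in wild type against 330.5 in the knockdown, a ratio of 1.00 with a 95% counting interval of 0.951 to 1.05. RpS15Aa was at 4447 and 4308 FPKM, so the second copy was 7.43% and 7.67% of the main copy, and the interval of the ratio of ratios (0.980 to 1.09) held 1. From implied reads per base of locus, which counts introns as length, the percentages were 21.2 and 21.7.

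RpS19b, a copy used mainly in the germ line, was the single member past 2-fold on the higher side, where 7.78% of all genes passed. It was at 11.02 FPKM in wild type (deposited interval 8.37 to 13.7, 69 implied reads) and 25.1 in the knockdown (21.9 to 28.3, 248 implied reads), 2.28-fold higher (1.74 to 2.97), a difference of 1.12. With a pseudocount of 5 the difference was 0.91 and the call was lost. Its main copy RpS19a was at 5883 and 5423 FPKM, so RpS19b was 0.187% of it in wild type against 0.4625% in the knockdown. Of 9 germ line markers, 5 were listed at 0 in both libraries, among them nos and osk, vas was listed at 0 in wild type against 3.71 FPKM in the knockdown, and bam was at 0.506 and 5.20, whereas bgcn was at 2.19 and 0.536 and aub at 3.45 and 4.70. The summed level of the list was 6.15 and 14.1 FPKM, and its part in the result was not tested.

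Other copies known from the germ line were near the limit of detection. RpS5b, found mainly in the ovary, was at 6.46 FPKM in wild type (61 implied reads) and 3.53 in the knockdown (47 implied reads), 0.165% and 0.0927% of RpS5a. Its deposited intervals were narrowly apart, with a lower bound of 4.81 in wild type and an upper bound of 4.56 in the knockdown. The upper quartile rescaling, a factor of 1.08, closes that gap. Per base of locus these shares were 0.623% and 0.347%. The direction was thus opposite to that of RpS19b. RpL22-like, known from testis and eye, was listed at 0 in wild type against 0.622 FPKM in the knockdown on 12 implied reads. RpS10a was at 2.79 FPKM in wild type on 18 implied reads and listed at 0 in osa RNAi, where equal levels would have given 28.0 reads. By the rule it was the single member past 2-fold on the lower side, where 6.79% of all genes passed, but the call was lost with a pseudocount of 5 (−0.64), and its locus overlaps that of tau.

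Genes named as -like copies whose yeast counterparts act in assembly of the large subunit were all higher. RpLP0-like corresponds to yeast Mrt4, which holds the place of the stalk protein during assembly, RpL24-like to yeast Rlp24, which holds that of RpL24, and RpL7-like to yeast Rlp7, a pre-ribosome factor. RpLP0-like was at 166 FPKM in wild type against 227 in the knockdown, 1.37-fold higher (95% counting interval 1.29 to 1.45). RpL24-like was at 311 and 386 FPKM, 1.24-fold higher (1.19 to 1.297), and RpL7-like at 223 and 260 FPKM, 1.17-fold higher (1.11 to 1.23). None was past 2-fold, where 14.6% of all genes were, their median was 0.31, and all 3 were above 0 under both rescalings. By deposited intervals all 3 were higher, where 35.9% of all genes were. The group is small and was not tested.

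Their structural namesakes were not higher. RpLP0 and RpL7 had differences of −0.14 and −0.26 with intervals apart, while the intervals of RpL24 overlapped, its difference being −0.03, and its sign changed under the upper quartile scaling. As a percentage of the namesake, RpLP0-like went from 8.97% to 13.5%, RpL24-like from 8.995% to 11.4% and RpL7-like from 4.25% to 5.97%. The ratio of ratios was 1.51 (1.42 to 1.60), 1.27 (1.21 to 1.33) and 1.403 (1.33 to 1.48), so each counting interval lay above 1. The loci of all 3 overlap another gene, namely Jra, CG18643 and CG34164, and how reads of the shared stretches were assigned was not tested.

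**Figure D4:**
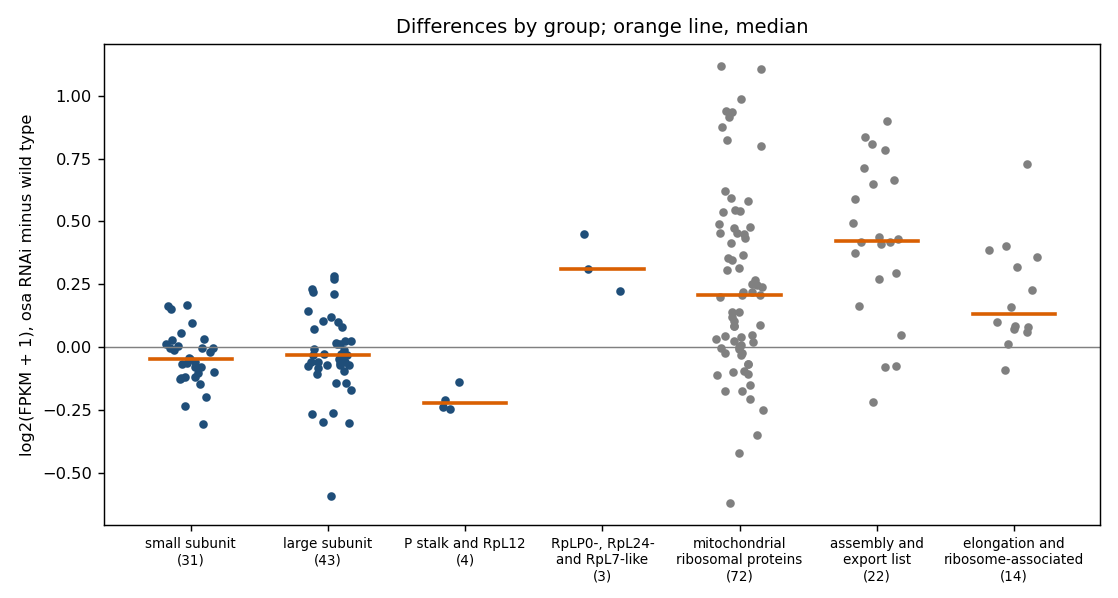
Knockdown minus wild type in log2(FPKM + 1) (y axis), with 1 point per measured gene, for 4 groups of ribosomal protein genes without RpS6 (blue) and 3 comparison lists (grey); orange lines are medians and numbers in brackets count genes. The structural proteins sit close to 0, the stalk group below it, and the assembly-related -like genes and the assembly list above it.

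Lists of other genes linked to the ribosome were set beside the structural proteins. Of 24 genes on the assembly and export list, 22 were in the tables and all 22 were measured, with a median of 0.42. None passed 2-fold, where 14.6% of all 7144 measured genes did. Of the 22 differences, 19 were above 0 and 3 below, where 3796 of all 7144 genes were above 0 and 3348 below. The list holds CG10333, a gene of another named function. Without it the other 21 had a median of 0.42, with 18 differences above 0 and 3 below. The highest were those of the nucleolar GTPase gene ns1 (48.4 FPKM in wild type against 91.0 in the knockdown) and the helicase gene pit (23.8 and 43.2). The lowest were those of eIF6, which keeps subunits apart (187 and 160 FPKM), and CG6712 (53.4 and 50.5). The 3 assembly-related -like genes lay within this range.

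Mitochondrial ribosomal proteins, which serve a separate ribosome, had a wider range than the cytosolic ones. Of 72 genes, mRpS2 (29.7 and 65.1 FPKM) and mRpL4 (25.3 and 56.0 FPKM) were past 2-fold on the higher side, none was past it on the lower side and 70 did not pass, where 7.78% of all genes were past it higher and 6.79% lower. Their median was 0.21, and mRpS14 (207 and 135 FPKM) and mRpL44 (101 and 75.02 FPKM) were lowest. The loci of mRpS2 and mRpL4 overlap other genes. The range between quartiles was 0.46, against 0.14 for the cytosolic main copies.

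Of 14 elongation and ribosome-associated genes in the tables none passed 2-fold, where 14.6% of all genes did, and the median was 0.13. Tctp was at 3246 and 3049 FPKM and Ef1alpha100E at 6.46 and 6.54, while the elongation factor gene Ef2b was at 750 and 990 and CG11267 at 701 and 1163. CG11267 and CG8258 resemble chaperonin genes rather than ribosome partners, and the median without them was 0.09. Rack1, a protein bound to the small subunit, was at 2179 and 2432 FPKM. Of 15 genes on a list of regulators of growth and of ribosomal protein production, the growth regulator Myc (dm, 20.9 and 45.3 FPKM) and foxo (2.86 and 9.84 FPKM) were past 2-fold on the higher side. None was past it on the lower side, where 7.78% of all genes were past it higher and 6.79% lower. The median of the list was 0.06. The list holds l(1)G0156, an isocitrate dehydrogenase gene, and the median of the other 14 was 0.12. The Myc antagonist Mnt was at 13.3 and 7.05 FPKM and Thor, the 4E-BP gene, at 91.8 and 70.9. The authors' deposited table of 15 genes at a false discovery rate of 0.01 held 0 members. Those 15 are so small a part of all 14210 genes that a count of 0 says little about the members.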

How the data were processed

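PolyA RNA of the sorted cells went into dUTP strand-specific libraries, per the labels' protocols. The authors deposited 1 table per library of FPKM per gene with confidence bounds and a status, per the file headers. Tools listed, without roles, in the submitters' processing notes are Cufflinks 1.3.0, TopHat 1.4.1, BWA 0.6.1, DESeq 1.8.3 and HTSeq. The sources used here give no build, annotation or strand setting. Starts were raised by 1, since of 1531 genes with the same end in BDGP6 (Ensembl release 115) 817 then matched and 14 matched unraised; transcript lengths come from that annotation by transcript identifier and were found for all 93 members. A table of adjusted p-values deposited by the authors was searched for members only.

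The bounds lay at FPKM ± 2 × FPKM/√n, with n whole within 0.02 for 93.6% and 94.1% of single-transcript genes under 50 reads, so n was used as implied reads. Fold intervals (95%) come from n and, like the deposited bounds, cover counting error only; reads are not independent molecules. Differences used a pseudocount of 1, which understates those of low genes. Genes averaging 1 FPKM or more with status OK in both libraries were measured (7144 genes, 88 members: 79 main and 9 second copies). Calling by 2-fold change was checked with simulated data that held counting noise only and planted changes larger than 2-fold. Such data do not cover variation between libraries.

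Named were osa, all members of duplicated families, the 8 highest and 8 lowest differences and 6 highest and 6 lowest levels of main copies, and the 2 extremes of each list in each direction; others were named after their values were seen. Some results under this rule are not reported here. Members and lists were chosen with earlier results of these data known. Python 3.11.15, numpy 2.4.6, pandas 2.3.3 and matplotlib 3.10.9 were used.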

Additional observations from a re-analysis of the deposited data

How the results depend on the processing

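No paired analysis was possible because each genotype had 1 library, and for the same reason no replicate could be left out. The median difference of the main copies was −0.083 after rescaling by the median ratio and 0.068 after rescaling by the upper quartile. It moved by under 0.02 with the other alternatives, including those added after seeing the data, RpS6 or transcripts under 500 bases left out. Members at least 2-fold higher numbered 1, and 0 with a pseudocount of 5, 2 at a fold threshold of 1.5, 4 at the lowest threshold tried and 0 at 3, where 7.78% of all genes, and then 2.16%, 17.1%, 28% and 4%, were called. Members at least 2-fold lower numbered 1, and 0 with a pseudocount of 5, with a mean FPKM of at least 5 or without overlapping loci, and 3 at a fold threshold of 1.5 and at the lowest tried, where 6.79% of all genes, and then 1.53%, 3.16%, 6.61%, 14.3% and 23.2%, were called. Members with intervals apart numbered 25 higher and 47 lower, where 35.9% and 30.0% of all genes were. After rescaling by the upper quartile they numbered 61 and 15, where 44.3% and 23.3% of all genes were. The share of members differed by −1.74 points, −2.11 by implied reads, −2.28 without loci under 500 bp, −1.60 without the 10 highest other genes and −1.41 without RpL41, added after seeing the data. Second copies under 1% of their main copy numbered 8 in every alternative run for them. The cause of these shifts was not tested. The likeness of copies in sequence and promoter motifs were not run. Few implied reads, 12 to 61, stand behind each value above 0 of RpS6, RpS5b, RpS10a and RpL22-like.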

Other observations

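Main copies on 3R had a median difference of 0.03 (16 genes), against −0.03 on 2L (17 genes), −0.07 on 2R (17 genes), −0.07 on 3L (13 genes) and −0.04 on X (14 genes, RpS6 among them). All measured genes of these arms had medians of 0.07, 0.06, 0.03, 0.03 and 0.02 in the same order. RpS6 apart, the 3 highest differences, those of RpL6, RpL35A and RpL36A, came from 3R, 3R and 2L. Among the 19 main copies whose locus overlaps another gene the median was −0.02, and among the other 59 without RpS6 it was −0.06.

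The 6 main copies with annotated transcripts under 500 bases had a median of −0.19, and 168 other genes of that length had 0.08. In the range from 500 to 700 bases the medians were −0.06 (34 main copies) and 0.00 (341 other genes), and from 700 to 1000 bases −0.03 (26) and 0.03 (695). Over the 78 main copies without RpS6 the difference and the transcript length had a Pearson r of 0.22 and a Spearman rho of 0.14, a description over genes of the same libraries.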
